A study of Mus musculus with 2 samples.

Results

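The clustered histone genes are the protein-coding histone genes whose symbols begin with Hist1h, Hist2h, Hist3h or Hist4h in the GENCODE M21 annotation. Of the 67 such genes in M21, 64 were found among the 43346 Ensembl genes of the deposited tables, and the other 3 (Hist1h2bh, Hist1h2bm and Hist2h2bb) were not analysed here. The 64 genes comprised 6 H1, 18 H2A, 15 H2B, 12 H3 and 13 H4 genes. Chromosome 13 held 52 of them, within mm10 chr13:21715763-23934851, chromosome 3 held 9 within chr3:96219865-96269141, chromosome 11 held 2 and chromosome 6 held 1. Polyadenylated RNA was sequenced from the sigmoid colon of a single adult mouse, a 10-week-old C57BL/6J female with no treatment named in the labels. Its RNA was made into 2 technical libraries, numbered here as in the labels, of which library 2 dates from 2015. There was therefore 1 group. An SD beside a level is over n = 2 technical libraries of 1 mouse and does not cover differences between mice.

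Core histones H2A, H2B, H3 and H4 form the nucleosome, and H1 binds the linker DNA between nucleosomes. Most mRNAs of the clustered genes are made during S phase and end just after a conserved stem-loop, with no poly(A) tail. The stem-loop is bound by SLBP and cut by a dedicated complex that includes the U7 snRNP. Some clustered genes also give longer, polyadenylated transcripts, which are known from differentiated cells. Replacement histones lie outside the clusters, are made throughout the cell cycle and have polyadenylated mRNAs. A poly(A)-selected library therefore samples the clustered genes through a particular part of their RNA.

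The stem-loops and 3′ ends below are those of the transcripts that the results turn on, read from GENCODE M21 (GRCm38, the same assembly as mm10) 5′ to 3′. In the first set the capitals mark the paired arms of the stem and the lower-case letters between them the loop.
Hist1h1c (chr13:23738808-23740367, plus strand): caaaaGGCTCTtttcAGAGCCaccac
Hist2h2aa2 (chr3:96239749-96240276, minus strand): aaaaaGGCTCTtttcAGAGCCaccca
Hist2h3c1 (chr3:96246685-96248509, plus strand): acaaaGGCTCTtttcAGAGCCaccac
Hist1h4i (chr13:22040636-22041362, minus strand): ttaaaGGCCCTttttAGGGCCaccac
Hist1h4n (chr13:21831767-21832196, minus strand): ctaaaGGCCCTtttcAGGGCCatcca
Hist1h4j (chr13:21735064-21735837, plus strand): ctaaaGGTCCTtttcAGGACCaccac
A match to the histone mRNA stem-loop consensus was found on the transcribed strand of 45 of the 69 annotated transcripts of these genes. All 33 of those from H1, H2A, H2B and H3 genes had the 5′ arm GGCTCT. The 12 from H4 genes had GGCCCT in 10 and GGTCCT in 2.

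The next set gives the last 30 annotated bases of transcripts that run past the stem-loop or hold no match to it, with the poly(A) signal, AATAAA or ATTAAA, in capitals.
Hist1h1c: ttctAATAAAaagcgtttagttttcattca
Hist2h3c1: ttttttaatcccAATAAAaatttaacacac
Hist1h4i: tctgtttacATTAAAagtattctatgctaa
Hist2h2be (chr3:96221119-96223738, plus strand): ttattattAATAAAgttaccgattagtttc
Of the members' protein-coding transcripts with the same length in the tables and in M21, 27 of 45 (60%) held the stem-loop, against 36 of 39666 (0.0908%) for other protein-coding genes. Of the same 45, 11 (24.4%) had AATAAA or ATTAAA in their last 50 bases on the transcribed strand, against 51.7% of the other protein-coding transcripts. A match is a description of letters and not evidence of processing.

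Library 1 held 25843064 expected counts and library 2 held 20681574. The mitochondrially encoded share of TPM was 44.2% in library 1 and 12.6% in library 2. TPM is the deposited level per transcript length and sums to the same total in each library. All 9 markers of colonic epithelium, smooth muscle and blood cells were above 0 in both libraries, and 8 were higher in library 2. Epcam had 451 and 955 TPM, Krt8 60.7 and 2931 TPM, Tagln 73.6 and 1186 TPM and Hbb-bs 48.4 and 1047 TPM. Ptprc had 22.1 and 16.7 TPM. Their part in the histone levels was not tested. A level in bulk tissue RNA reflects both the cells present and the RNA per cell, which cannot be told apart. The summed TPM of the 64 clustered genes was 276 in library 1 and 782 in library 2, a mean of 529 ± 357 (SD, n = 2), or 2.83-fold more in library 2. On a scale over the nuclear protein-coding genes alone, the sums were 882 and 1038 TPM, or 1.18-fold more. The difference in summed level thus depended on the scale, and was smaller when nuclear protein-coding genes alone made up the total.

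The 14 replacement histone genes summed to 1338 TPM in library 1 and 1796 TPM in library 2, which was 4.84 and 2.30 times the clustered genes. Over nuclear protein-coding genes alone the order of the libraries was the other way, with 4269 and 2383 TPM. H3f3a, which encodes the replacement histone H3.3, had 595 and 742 TPM. H3f3b, the other H3.3 gene, had 487 and 420 TPM. By scaled counts, with the test described below for Hist1h1c, both were called lower in library 2, with log2 ratios of -1.22 (SE 0.02) and -1.46 (SE 0.02). They were the only 2 replacement histone genes called lower. Of the 11 tested, 5 were called higher, and the median log2 ratio was 0.53. Over all genes tested, 37.0% were called higher and 28.2% lower. H2afz, which encodes H2A.Z, had 171 and 216 TPM. H3f3a and H3f3b were above every clustered H3 gene in both libraries, and H2afz above every clustered H2A gene.

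H2B carried the largest share of the clustered histone TPM in both libraries, with 76.9% in library 1 and 45.2% in library 2. H1 carried 11.4 and 32.6%, H2A 2.16 and 14.7%, H3 7.97 and 1.00%, and H4 1.60 and 6.41%. By TPM, H2B was thus first and H1 second in each library, and the order of the other 3 types was not shared. In library 1 the H3 share rests on Hist2h3c1, with 94.4% of H3 TPM. That gene had 0 in library 2 and overlaps another gene, as given below. By expected counts, which are not per length, H1 exceeded H2B in library 2, with 4996 and 3163 counts. H2A, H3 and H4 could not be ordered beyond their spread: their mean shares were 8.45 ± 8.90, 4.49 ± 4.93 and 4.01 ± 3.4% (SD, n = 2).

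**Figure D1:**
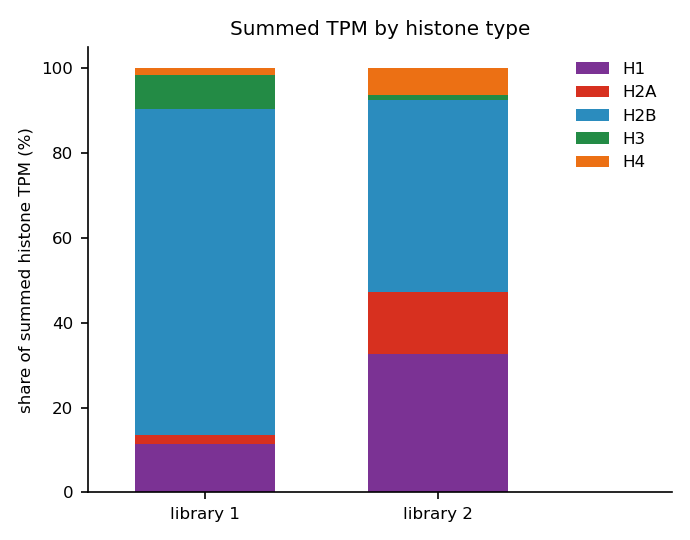
Stacked bars of the share of summed clustered histone TPM (%, y axis) taken by each histone type in library 1 and library 2. H2B takes 76.9 and 45.2%, and H1 takes 11.4 and 32.6%.

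A few genes held most of this RNA. Hist1h2bc and Hist1h1c together made up 83.0% of the clustered histone TPM in library 1 and 73.8% in library 2. Of the 64 genes, 16 had counts in library 1 and 48 in library 2, and 8 reached 1 TPM in both. Another 15 were at 0 in both libraries: Hist1h1a, Hist1h1b and Hist1h1t among the H1 genes, 6 H2A, 3 H2B, 2 H3 and 1 H4 gene. Hist1h1t is the testis H1; these 3 are named after their values were seen. By counting error alone, a 0 can stand for as many as 3 counts. That is 0.116 CPM (counts scaled to a fixed library total) in library 1 and 0.145 CPM in library 2. Of the genes with counts, 3 of 16 in library 1 and 15 of 48 in library 2 had fewer than 3. Those genes are not clearly apart from genes at 0. In library 2, 39 of the 48 genes with counts had expected counts more than 0.005 from a whole number, a mark of reads shared out between genes, and in library 1 this was so of 4 of 16. Levels of single near-identical genes are therefore uncertain, most of all in library 2.

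**Figure D2:**
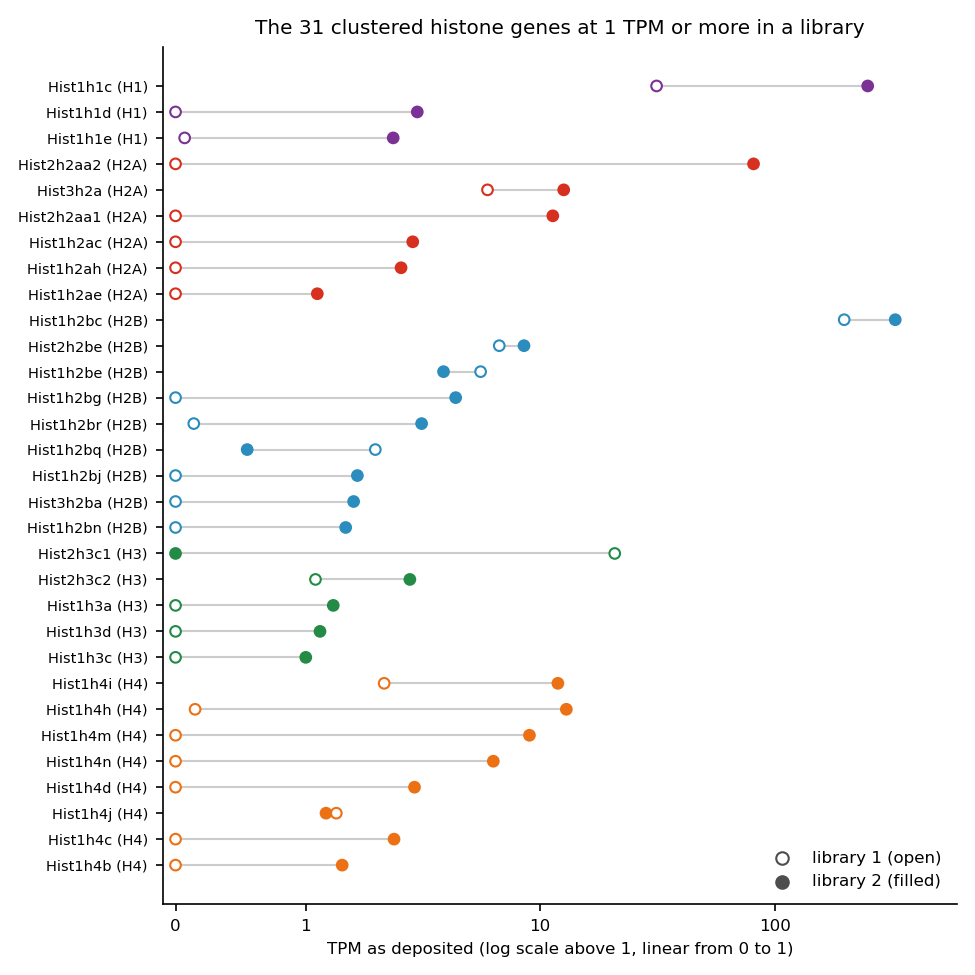
TPM (x axis, log scale above 1 and linear below) of the 31 clustered histone genes at 1 TPM or more in at least 1 library; open points are library 1, filled points library 2, and colours the histone type. Hist1h2bc and Hist1h1c stand far to the right in both libraries, and most of the other genes lie at 0 in library 1.

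Hist1h1c encodes H1.2, a linker histone found in most somatic cells. It had 31.4 TPM in library 1 and 250 TPM in library 2, from 1036 and 4952 expected counts. By TPM it was the leading H1 gene in both libraries, with 99.8 and 97.9% of H1 TPM. Scaled by effective library sizes, which are totals corrected by the trimmed mean of M-values (TMM), its log2 ratio of library 2 over library 1 was 1.83 (SE 0.05, counting error only). It was called higher in library 2. Calls needed a Benjamini-Hochberg adjusted p under 0.05 over all 15705 genes tested, from a two-sided exact binomial test, and at least a 2-fold ratio. That test compares these 2 libraries and neither conditions nor mice. Hist1h1c has 55.1% GC. With the trend of all genes' ratios on GC content taken off, its log2 ratio was -0.60, so its direction turned. With the length trend taken off it was 0.89 and the call ended. Hist1h1d, which encodes H1.3, had 0 and 24.3 counts, and Hist1h1e, which encodes H1.4, had 1 and 19.3 counts. Both were called higher in library 2, though with the length trend taken off Hist1h1e fell to 1.68 and lost its call. Hist1h1d was at least 6-fold higher in library 2, against a floor of 3 counts in library 1. In M21, Hist1h1e shares 496 exon bases with Hist1h2be on the same strand, at the 3′ end of its transcript of 1930 bases. The counted model of Hist1h1e has 748 bases, and whether it reaches that stretch is not known.

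Among H2A genes the near-identical pair Hist2h2aa1 and Hist2h2aa2 was first in library 2 and at 0 in library 1. Hist2h2aa2 had 0 counts in library 1 and 408 counts, or 81.3 TPM, in library 2. Hist2h2aa1 had 0 and 66.2 counts, or 0 and 11.3 TPM. Reads of the pair cannot be told apart with certainty, and their sum was 0 and 475 counts. Hist2h2aa2 alone was at least 101-fold higher in library 2 against the floor, with an adjusted p of 1.58e-98 by the exact binomial test. Each gene lies wholly opposite an antisense gene. Gm20632, opposite Hist2h2aa2, had 100 and 60.1 counts, and Gm20633, opposite Hist2h2aa1, had 60 and 53.9 counts. On the same strand, Gm20634 shares 529 bases with Hist2h2aa1, 90.3% of that gene's exon bases, and had 23.0 and 509 counts. No source used here gives the strand setting of the counting, so reads of these genes cannot be told apart with certainty from those of the genes they overlap.

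Hist3h2a was the 1 H2A gene with counts in library 1. It had 281 and 356 counts, or 5.96 and 12.6 TPM. Its log2 ratio was -0.09 (SE 0.12), with an adjusted p of 0.467 by the exact binomial test, so the scaled counts differed by no more than counting error. By total counts the log2 ratio was 0.66 and by TPM 1.08, so its sign depended on the scale. Of its exon bases, 33% also belong to Trim17 on the same strand, which had 9 and 9.84 counts. A group of 12 other H2A genes, each sharing at least 50% of 31-base words with another of the group, summed to 0 counts in library 1 and 37.3 counts in library 2. Hist1h2ac led these with 12.2 counts, or 2.86 TPM, in library 2.

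Hist1h2bc, an H2B gene, had the highest TPM of the clustered histone genes in both libraries, with 198 TPM in library 1 and 327 TPM in library 2. Its expected counts were almost the same, 2611 and 2620. Its log2 ratio was -0.42 (SE 0.04), an adjusted p of 5.07e-26 by the exact binomial test, and as this is 1.34-fold it was not called. The sign of that small difference depended on the scale: it was 0.33 by total counts and 0.72 by TPM. With the length trend taken off it was -2.02 and was called lower. In M21 its transcript has 2 exons at chr13:23684199-23692908. The first exon ends 9 bases after the stop codon and is followed by an intron of 7554 bases and a last exon. No match to the stem-loop consensus lies in the spliced transcript. The tables give the transcript as 736 bases and M21 as 1156 bases, so the 3′ end that was counted is not known. In TPM, the fold of Hist1h2bc over Hist1h1c was 6.32 in library 1 and 1.31 in library 2. The order by TPM rests on that deposited length, and by expected counts Hist1h1c was above Hist1h2bc in library 2, with 4952 and 2620.

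Hist2h2be, whose annotated transcript of 2620 bases has no stem-loop match and ends in a poly(A) signal, had 392 and 299 counts, or 6.69 and 8.53 TPM. Its log2 ratio was -0.82 (SE 0.11) and it was not called, and the sign turned to 0.35 by TPM. With the length trend taken off it was -1.19 and was called lower. Hist1h2be had 262 and 110 counts, or 5.57 and 3.87 TPM, and was called lower in library 2, with a log2 ratio of -1.68 (SE 0.16) and an adjusted p of 5.46e-27 by the exact binomial test. The call ended by total counts, at -0.93, and with the GC trend taken off, at -0.07. Of its TPM, 87.4% in library 1 and 81.3% in library 2 lay in a non-coding transcript of 2099 bases that holds no stem-loop match and ends in a poly(A) signal. The level of Hist1h2be is therefore mostly not that of an H2B mRNA as annotated.

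Hist1h2bq and Hist1h2br gave opposite calls that ended once they were summed. Hist1h2bq had 91.2 and 14.4 counts and was called lower, and Hist1h2br had 6.83 and 73.8 counts and was called higher. These neighbours share 1973 words of 31 bases, 98.3% of the words of the smaller set. Their sum was 98 and 88.3 counts, with a log2 ratio of -0.58 (SE 0.21) and no call. Neither gene's call was kept by the sum. The other 10 H2B genes were at 0 in library 1, and the highest of them in library 2 was Hist1h2bg with 18.7 counts, or 4.36 TPM.

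The leading H3 gene of library 1 overlaps another gene. Hist2h3c1 had 817 counts, or 20.8 TPM, in library 1 and 0 in library 2. It was called lower in library 2, at least 367-fold against the floor, with an adjusted p of 2.07e-302 by the exact binomial test. With 0 counts in library 2 it entered the test only through library 1 and had to differ, so the call is no support by itself. Its annotated transcript of 1820 bases runs 1162 bases past the stem-loop and lies wholly within Gm20634 on the same strand. Gm20634 had 23.0 counts in library 1 and 509 in library 2. Those of library 1 all lay in a transcript of 1825 bases that M21 assigns to Hist2h3c1. Those of library 2 all lay in a transcript of 2956 bases that covers Hist2h3c1 and most of Hist2h2aa1. The sum of Hist2h3c1 and Gm20634 was 840 and 509 counts, with a log2 ratio of -1.15 (SE 0.08) and an adjusted p of 4.05e-47 by the exact binomial test. The call held for this sum, while its size fell from at least 367-fold to near the 2-fold limit. Hist2h2aa1, which Gm20634 also overlaps, is left out of it. With Hist2h2aa1, Hist2h2aa2 and Hist2h3c2 added, the sum was 862 and 1017 counts before scaling. The effective size of library 2 was 1.35 times that of library 1, so no direction is read from these unscaled counts. This wider sum was not tested, so the lower call is shown only for the sum of Hist2h3c1 and Gm20634. Hist2h3c2 had 22.1 and 33.6 counts, a log2 ratio of 0.19 (SE 0.39) and no call. With 60.2% GC, it was -4.68 and called lower with the GC trend taken off, and with the length trend taken off it was -1.28 and called lower. The 9 H3 genes of the chromosome 13 cluster summed to 2 and 25 counts.

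H4 genes were low in both libraries. Hist1h4i had 28 and 93.7 counts, or 2.16 and 11.9 TPM, and was called higher, with an adjusted p of 1.14e-05 by the exact binomial test and a 2.46-fold ratio. With either the GC or the length trend taken off it was -0.02 or -0.30, so that call did not hold. Hist1h4h had 1 and 54.8 counts and was called higher. The near-identical Hist1h4m and Hist1h4n had 0 counts in library 1 and 29 and 22.9 counts in library 2. Both were called higher, at least 7.18-fold and 5.66-fold against the floor. Hist1h4j had 19 and 10.4 counts and was called lower. Its log2 ratio was -1.32 (SE 0.55), with an adjusted p of 0.0169 by the exact binomial test, and by total counts its call ended. Its group of 7 near-identical H4 genes, which also holds Hist1h4h and Hist1h4i, summed to 48 and 173 counts. That sum was called higher, with a log2 ratio of 1.41 (SE 0.23), so the lower call was not kept by the sum. Hist2h4 had 20 counts in each library, and Hist4h4 had 12 and 10, and neither was called. With the length trend taken off Hist2h4 was -1.29 and was called lower.

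In all, 20 of the 64 genes had a mean expected count of at least 10 and were tested. Of these 10 were called higher in library 2, beside 37.0% of all genes tested, and 4 were called lower, beside 28.2%. Of the 10 called higher, 8 had fewer than 10 counts in library 1. They entered the test only through library 2. All but Hist1h2br had 0 or 1 counts in library 1 and had to differ. For Hist1h2br, with 6.83 counts there, the entry rule favoured a difference without fixing it. The count of higher calls is therefore no support for a difference. Among the lower calls, Hist2h3c1 entered only through library 1 and likewise had to differ. The median log2 ratio of the 20 was 0.74, which the same entry rule raises, and that of all genes tested was 0.12.

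Among transcripts with a stem-loop, counts in library 1 differed with the annotated 3′ end. The tables hold 27 transcripts of these genes whose length is the same in M21 and which contain the stem-loop. Of the 10 that run more than 100 bases past it, 8 had counts in library 1 and 9 in library 2. Of the 17 that end within 100 bases of it, 0 had counts in library 1 and 14 had counts in library 2. Some transcripts of both classes had fewer than 3 counts, such as Hist1h2bf with 1.06 in library 2 and Hist1h3e with 2 in each library. These are not clearly apart from 0. The longer transcripts summed to 2225 counts, or 63.5 TPM, in library 1 and 5480 counts, or 281 TPM, in library 2. The shorter ones summed to 0 in library 1 and to 560 counts, or 115.8 TPM, in library 2, where Hist2h2aa2 held 81.3 TPM of it. Of the TPM of all same-length transcripts, 84.0% in library 1 and 67.2% in library 2 lay in those that run past the stem-loop. The mean was 75.6 ± 11.9% (SD, n = 2). Transcripts whose length differs from M21 are outside this share, with 200.8 of 276 TPM in library 1 and 363.9 of 782 TPM in library 2. Hist1h2bc, with 198 and 327 TPM, is the largest of them, so the share does not cover the leading gene. Hist1h1c alone held 31.4 of the 63.5 TPM of the longer transcripts in library 1 and 250 of the 281 TPM in library 2. With it left out, the shares were 72.7 and 18.7%, so the share in library 2 rests on this gene. Another 10 transcripts with counts in library 1 fall outside these classes, 4 with no stem-loop match and 6 whose length differs from M21. Among the latter, Hist1h4h, 473 bases in the tables and 470 in M21, ends 46 bases after its stem-loop in M21 and had 1 count in library 1. A poly(A) signal stood in the last 50 bases of 8 of the 10 longer and 0 of the 17 shorter transcripts.

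**Figure D3:**
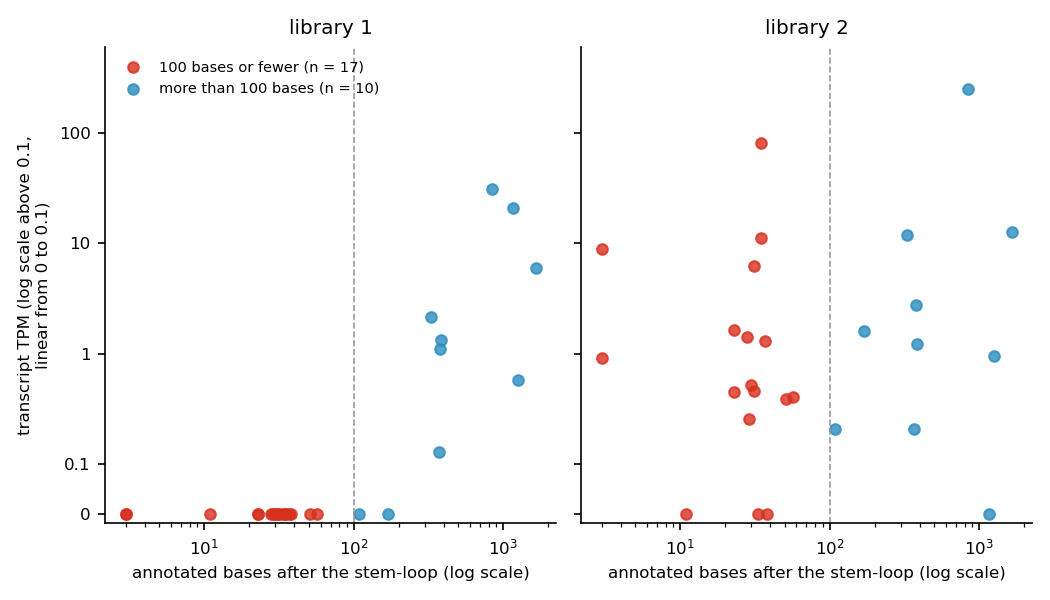
TPM of each stem-loop transcript (y axis, log scale above 0.1 and linear below) against the annotated bases after its stem-loop (x axis, log scale), one panel per library; the dashed line is at 100 bases. In library 1 every point left of the line is at 0, and in library 2 14 of the 17 are above 0.

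Length and base composition moved with this split. The 17 genes with a shorter transcript had mean lengths of 391 to 620 bases and 55.7 to 65.1% GC, while the 10 longer transcripts had 539 to 2146 bases. Among other nuclear protein-coding genes under 650 bases and with at least 55% GC, 35 of 37 with 1 to under 10 counts in library 2 were also at 0 in library 1, as were 12 of 15 with 10 to under 60 counts. Of the shorter histone genes, 10 of 10 and 2 of 2 in those ranges were at 0. Above 60 counts in library 2, 11 of 75 other genes were at 0 in library 1 (14.7%), and both shorter histone genes there, Hist2h2aa1 and Hist2h2aa2, were. Short GC-rich genes with few counts in library 2 were thus mostly at 0 in library 1, histones or not. The part of length, base composition and 3′ end in the split was not tested apart.

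Base composition also moved with the ratios of the tested genes. Among other genes the median log2 ratio was -0.52 at 45 to under 50% GC, 1.14 at 50 to under 55% and 3.51 at 55 to under 60%, and 93.1% of the last were called higher. Among the 44 histone genes whose transcripts all have the same length in M21, the 10 with counts in library 1 had a median of 51.1% GC. The 21 with counts in library 2 alone had a median of 61.2% GC, and the 13 at 0 in both had 63.3%. With the GC trend taken off, 4 genes were called higher in place of 10: Hist1h1d, Hist1h1e, Hist1h2br and Hist2h2aa2. Hist1h1d and Hist1h1e are void there, since their GC content comes from M21 transcripts of 7425 and 1930 bases and their counts from models of 744 and 748 bases. The GC values of Hist1h2bc and Hist1h2bq, whose models also differ in length from M21, are uncertain, as are to a lesser degree those of Hist1h2be, Hist1h4h and Hist4h4.

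**Figure D4:**
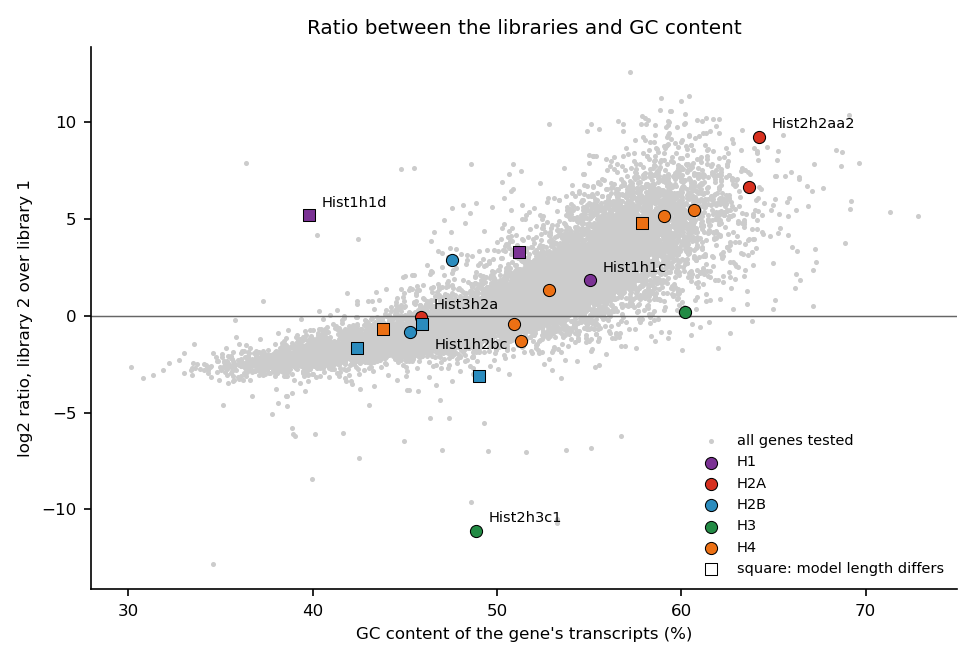
Log2 ratio of library 2 over library 1 (y axis) against GC content in percent (x axis) for all genes tested (grey) and the 20 tested clustered histone genes, coloured by type; squares mark genes with a transcript whose length differs between the tables and M21. Most histone genes lie within the grey band, while Hist2h3c1 lies far below it and Hist1h1d above it.

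Many H2A and H2B genes of the clusters are arranged head to head, in opposite directions from a shared stretch of DNA. There were 12 such pairs with starts at most 500 bases apart, all of 1 H2A and 1 H2B gene, with 176 to 306 bases between their starts. In library 1, none of the 12 H2A genes had counts, and 4 of the 12 H2B genes did. In library 2, 9 of the H2A and 9 of the H2B genes had counts, with the H2B gene higher in 7 pairs and the H2A gene in 3. Hist1h2an, Hist1h2ao, Hist1h2ag, Hist1h2ad and Hist2h2ac among these H2A genes had fewer than 3 counts in library 2. So did Hist1h2bf and Hist1h2bk among the H2B genes. Such genes are not clearly apart from 0, so the tally of pairs is uncertain. The widest gap was between Hist1h2bc, with 198 and 327 TPM, and Hist1h2ac, with 0 and 2.86 TPM, whose starts are 251 bases apart. Hist2h2be, with 6.69 and 8.53 TPM, faces Hist2h2ac, with 0 and 0.41 TPM. Hist2h2ac and the other genes under 3 counts are named here after their values were seen. The H2B gene of both pairs has an annotated transcript with no stem-loop match. Hist2h2ac ends within 100 bases of its stem-loop, and for Hist1h2ac the tables and M21 differ in length.

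**Figure D5:**
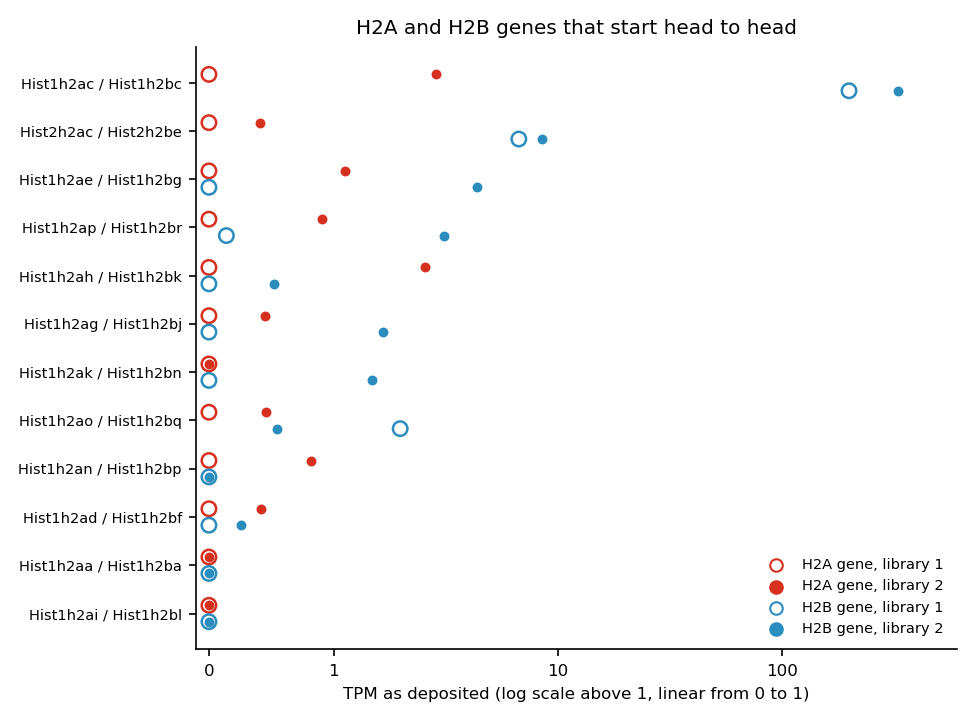
TPM (x axis, log scale above 1 and linear below) of the 12 head-to-head pairs, with the H2A gene in red and the H2B gene in blue; open rings are library 1 and filled points library 2. The H2A genes are all at 0 in library 1, and Hist1h2bc stands apart from its partner in both libraries.

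The stretch between Hist1h2ac and Hist1h2bc is shown because the pair with the widest gap shares it. It is the RefSeq promoter of Hist1h2ac (listed as H2ac6, GRCm38.p6, chr13:23683910-23684209, minus strand), and it reaches the start of Hist1h2bc at its 5′ end. Capitals mark the octamer ATTTGCAT, the TATAAA motif and also CCAAT, each on either strand.
Hist1h2ac promoter: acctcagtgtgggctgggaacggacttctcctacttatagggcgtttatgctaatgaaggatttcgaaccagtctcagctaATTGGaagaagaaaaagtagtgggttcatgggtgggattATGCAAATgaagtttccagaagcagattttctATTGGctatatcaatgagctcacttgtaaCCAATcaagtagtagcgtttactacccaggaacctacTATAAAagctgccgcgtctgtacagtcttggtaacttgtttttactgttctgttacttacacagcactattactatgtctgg
RefSeq promoters, 250 bases before to 50 after the start, were matched for 59 of the 64 genes. Hist1h2bc was not among these. Promoters of genes that start head to head overlap, so the counts below are not all of separate stretches. ATTTGCAT or its reverse complement was in 7 of 18 H2A and 4 of 13 H2B promoters, in none of the 28 from H1, H3 and H4 genes, and in 1.75% of all 27025 promoters. CCAAT, on either strand, was in 84.7% of the 59 and 37.9% of all, and in 3 of 12 H4 promoters. TATAAA, on either strand, was in 59.3% of the 59 and 14.2% of all. These letters are descriptions and not sites shown to be bound.

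Factors that act on histone mRNA ends had counts in both libraries. Slbp, which encodes the stem-loop binding protein, had 47.9 and 40.6 TPM and was called lower in library 2. Of the 22 histone mRNA 3′ end factors, all tested, 6 were called higher and 8 lower, with a median log2 ratio of -0.56. Over all genes tested, 37.0% were called higher and 28.2% lower, and the counts of this list and of the 3 lists below are to be read against those shares. Tut7, a uridyltransferase of histone mRNA decay, had 24.9 and 34.8 TPM. Lsm10, a protein of the U7 snRNP, had 0.20 and 11.3 TPM, and Lsm11, another, had 1.43 and 3.96 TPM. The library 1 level of Lsm10 comes from 3 counts, as many as a 0 can stand for. Lsm10 and Lsm11 are named after their values were seen. Of the 14 general cleavage and polyadenylation factors, 3 were called higher and 8 lower, with a median of -1.37. Papola, the poly(A) polymerase, had 195 and 105 TPM and was among those lower.

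Of the 16 histone chaperones, 7 were called higher and 5 lower, with a median log2 ratio of 0.72. Nap1l1, a chaperone of H2A and H2B, had 113 and 61.7 TPM and was called lower. Of the 24 S phase and proliferation genes, 11 were called higher and 6 lower, with a median of 0.86. Pcna, the sliding clamp of DNA replication, had 83.6 and 72.8 TPM. Mki67, expressed in cycling cells, had 16.1 and 16.8 TPM. Both were called lower by scaled counts. Each of these lists held calls in both directions, beside a median of 0.12 over all genes tested, and nothing is read from them about these genes in particular.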

How the data were processed

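The tables hold the authors' expected counts per gene and transcript, which share out reads matching several transcripts, and the deposited TPM, a posterior mean TPM and the percent of a gene in each transcript, per the file headers. The assembly was mm10 with GENCODE M4, per the text files beside the tables. Aligner, quantifier and strandedness: not given in the sources used here. The members and gene lists were chosen with earlier results of these data known. Named were the 15 most abundant members or copy groups, 3 per type, every called member, members with a long 3′ end and at least 1 TPM, and up to 5 genes per other list.

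Rounded counts of genes that averaged at least 10 expected counts were compared by a two-sided exact binomial test, given TMM sizes (edgeR 4.0.16), whose ratio was 1.35. One library on each side leaves no degrees of freedom for the quasi-likelihood test. Log2 ratios used a prior count of 0.5. Copies shared at least 50% of 31-base words. Trends were lowess fits (statsmodels 0.14.6, fraction 0.2). The test was checked on simulated counts. Alternatives included DESeq2 1.42.0 size factors.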

Additional observations from a re-analysis of the deposited data

How the results depend on the processing

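Other settings changed 1 choice at a time. Those that sum genes with Hist2h3c1, Hist1h2bq or Hist1h2br, or that add Gm20634 to the members or leave out Hist1h1c, were chosen after seeing the data. The mean summed TPM of 529 was 960 over nuclear protein-coding genes alone, and ran from 276 to 782 when 1 library was left out. The 10 genes called higher became 18 with no count minimum, 3 at a mean of at least 50 counts and 4 with the GC trend taken off. The 4 called lower became 2 by total counts, 1 with near-identical copies summed and 8 with the length trend taken off. The share of same-length TPM in transcripts past the stem-loop was 75.6%. It was 87.8% when past meant more than 30 bases, 45.7% with Hist1h1c left out, and 67.2 to 84.0% without 1 library. H1, H2A, H2B, H3 and H4 shares ran from 11.4 to 32.6, 2.16 to 14.7, 45.2 to 76.9, 1.00 to 7.97 and 1.60 to 6.41% without 1 library.

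Log2 ratios of single genes turned direction as follows. By total counts, Hist1h2bc was 0.33, Hist2h4 0.32, Hist3h2a 0.66 and Hist4h4 0.07. With the GC trend off, Hist1h1c was -0.60, Hist1h2bc 0.46, Hist1h4i -0.02, Hist2h2be 0.22, Hist2h3c2 -4.68, Hist3h2a 0.81 and Hist4h4 0.66. With the length trend off, Hist1h4i was -0.30 and Hist2h3c2 -1.28. By TPM, Hist1h2bc was 0.72, Hist2h2be 0.35, Hist2h4 0.73, Hist3h2a 1.08 and Hist4h4 0.45. The sum of Hist1h2bq and Hist1h2br was -0.58, against 2.88 for Hist1h2br alone. The cause of these changes was not tested. The GC content of Hist1h2bc and Hist4h4 comes from M21 models of another length than those counted, so their GC values are uncertain. With the length trend off, Hist1h1c, Hist1h1e and Hist1h4i lost their calls, and Hist1h2bc, Hist2h2be, Hist2h3c2 and Hist2h4 were called lower. A count of 0 limits each gene to a bound set by 3 counts.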
